A study of Mus musculus with 12 samples.

Results

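Glycine and GABA transmission was followed in the mouse lumbar spinal cord through 30 genes, taken by symbol from the 49548 genes that were counted. Of these, 7 are glycinergic (the glycine receptor subunits Glra1, Glra2, Glra3, Glra4 and Glrb and the glycine transporters Slc6a5 and Slc6a9). Another 19 are GABAergic: 14 subunits of the GABA-A receptor, the GABA-B receptor subunits Gabbr1 and Gabbr2, the GABA-synthesising enzymes Gad1 and Gad2, and Abat, the transaminase that breaks GABA down. The remaining 4 serve both transmitters: Slc32a1, which loads glycine and GABA into synaptic vesicles, Gphn, the scaffold gephyrin that holds glycine and GABA-A receptors at the synapse, and the chloride cotransporters Slc12a5 (KCC2) and Slc12a2 (NKCC1).

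RNA was sequenced in bulk from 8 MFN2 and 4 WT mice, all untreated and 30 days old, with 1 library per mouse. MFN2 mice, labelled CMT2A, were MitoCharc1 animals on a B6;D2 background with the transgene Tg(Eno2-MFN2*R94Q)L51Ugfm. They were hemizygous for this human MFN2 copy with the R94Q change, driven by the neuron-specific rat Eno2 promoter, and kept both copies of mouse Mfn2. R94Q is a mutation of Charcot-Marie-Tooth disease type 2A, an inherited neuropathy of motor and sensory axons. WT mice carried no transgene and were labelled C57BL/6, while the study's methods call them littermates, so that any difference in strain background and the transgene cannot be told apart here. The libraries are numbered 41 to 43 (MFN2), 44 to 47 (WT) and 72 to 76 (MFN2). Total counts ranged from 19359454 to 26738930 in MFN2 libraries and from 19453238 to 23564568 in WT libraries. Because the second run of numbers holds only MFN2 mice, run and genotype cannot be told apart for libraries 72 to 76. Mouse Mfn2 measured 206 ± 12.8 CPM (counts scaled to library size with TMM factors; SD, n = 8) in MFN2 and 213 ± 15.1 CPM (n = 4) in WT mice, which does not check the labels, since the transgene is human. Mouse Eno2, a neuronal enzyme gene whose rat promoter drives the transgene, measured 537 ± 37.7 CPM (SD, n = 8) in MFN2 and 585 ± 38.7 CPM (SD, n = 4) in WT mice, with overlapping ranges.

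Glycine and GABA are the fast inhibitory transmitters of the spinal cord. Glycine opens pentameric chloride channels built from alpha subunits and the beta subunit Glrb, and GABA opens the related GABA-A channels and acts more slowly through the G-protein-coupled GABA-B receptor. Many spinal interneurons release both, because a single vesicular transporter carries either one, and what they release depends on whether the cell holds glycine, taken up by Slc6a5, or GABA, made by Gad1 and Gad2. In the forebrain, by contrast, fast inhibition is mainly GABAergic.

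MFN2 library 43 stood apart from the other 11 libraries in the markers of its tissue. All 8 forebrain neuron markers were highest in it, and their summed level was 4685 CPM against 108.5 to 207 CPM elsewhere. Their most abundant gene, Camk2a, a kinase of forebrain excitatory synapses, was at 1920 CPM against 69.5 to 151.7 CPM. All 7 forebrain inhibitory neuron markers were also highest in library 43, with a sum of 61.5 CPM against 1.37 to 3.27 CPM. The caudal Hox genes, which mark the trunk levels of the cord, were lowest in it for 7 of 8 genes, with a sum of 42.7 CPM against 235.8 to 301 CPM. Hoxb8, the most abundant of them, was at 19.3 CPM against 74.4 to 148.6 CPM. All 6 motor neuron markers were lowest in library 43 too (sum 35.5 against 153.6 to 370 CPM), with the most abundant, Prph, at 10.3 against 55.0 to 135.9 CPM. So were all 7 spinal inhibitory neuron markers, a list that includes Slc6a5 as its most abundant gene (88.4 against 400.6 to 518.2 CPM), and all 6 oligodendrocyte markers (8133 against 21104 to 33950 CPM). Of the 6 spinal excitatory neuron markers 4 were lowest and 1 highest in it (sum 111.8 against 188.8 to 282 CPM). Astrocyte markers were lowest for 5 of 6 and highest for 1 (1564 against 2081 to 5093 CPM). Cerebellar granule neuron markers were highest for 3 of 6 and lowest for 1 (94.8 against 35.1 to 67.4 CPM). General neuron markers were highest for 3 of 6 and lowest for 2 (3238 against 2423 to 3008 CPM). The Schwann cell markers, which belong to peripheral nerve, summed to 199.7 CPM in library 43 and 204.1 CPM in MFN2 library 73, against 1.67 to 4.85 CPM in the other 10, so that library 73 stood apart in this list too. None of these markers was at 0 in all libraries. Comparisons of members that include library 43 are therefore given with and without it. The edgeR calls of members in libraries 72 to 76 against WT are also given without library 73.

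Expression per exon length (RPKM, counts scaled to library size and exon length) placed a glycine receptor subunit at the top of the list. In WT mice, Glra1, the adult alpha subunit of the glycine receptor, was the most abundant member at 118 ± 3.6 RPKM (SD, n = 4), and its range did not overlap that of any other member. Slc12a5 followed at 75.7 ± 5.4 RPKM, then Abat at 62.8 ± 5.5, Slc6a5 at 58.2 ± 3.7, Slc32a1 at 52.1 ± 3.6, Glrb at 51.1 ± 4.7, Gabbr1 at 50.5 ± 1.6, Slc12a2 at 40.5 ± 8.3 and Slc6a9 at 38.2 ± 2.2 RPKM. From Slc12a5 to Slc6a9 each gene's WT range overlapped that of the next, so the order of these neighbours is not resolved. A gap without overlap then separated Slc6a9 from Gabbr2 (23.9 ± 2.8 RPKM). The place of Glra1 at the top depends on the division by exon length. In CPM, its median over the libraries other than library 43 was 293.0. That median was higher for Slc12a5 (562.4), Abat (467.9), Slc12a2 (414.3), Slc6a5 (404.1) and Gabbr1 (396.2).

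The GABA-A subunits lay lower. Gabra3 (20.3 ± 1.7 RPKM) and Gabra5 (16.9 ± 1.9 RPKM) were the most abundant of the 14 listed, followed by Gabrb1 at 8.74 ± 1.3, Gabra2 at 8.41 ± 2.5, Gabrb2 at 6.55 ± 0.90 and Gabrg1 at 3.98 ± 0.41 RPKM. The synthesis enzymes were close to each other, with Gad2 at 18.1 ± 4.5 and Gad1 at 14.5 ± 2.2 RPKM, and gephyrin was at 21.2 ± 0.24 RPKM. The remaining alpha subunits of the glycine receptor were far below Glra1: Glra3 measured 2.32 ± 0.68 RPKM and Glra2, the fetal subunit, 2.08 ± 0.53 RPKM. Gabre measured 0.42 ± 0.12 RPKM, the lowest of the 25 members that passed the filter on low counts (more than 1 CPM in at least 3 libraries).

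The other 5 members did not pass that filter. Gabra6, a subunit of cerebellar granule cells, had 0 counts in 10 libraries and at most 3 counts in 1 library, and Gabrr1 had between 0 and 6 counts. Gabrr2 had 2 to 13 counts and Glra4 had 1 to 18 counts. Gabrd, the delta subunit of receptors outside the synapse, had 6 to 17 counts in 11 libraries and 502 counts in library 43. These genes were at the edge of detection in lumbar cord, with the single exception of Gabrd in library 43.

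**Figure D1:**
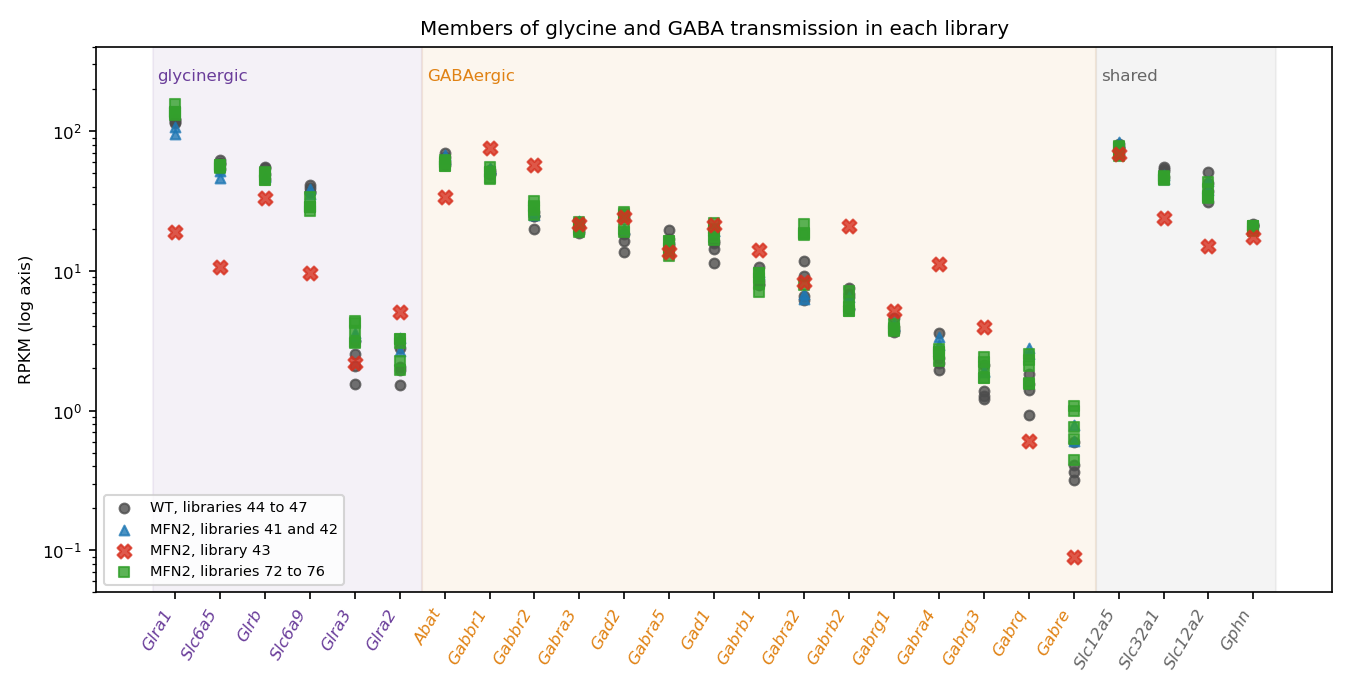
Level of the 25 members that passed the filter in each of the 12 libraries, in RPKM on a log axis, grouped as glycinergic, GABAergic and shared and ordered by the WT mean; each point is 1 library. Glra1 had the highest RPKM of the members in WT libraries, at 118. MFN2 library 43 lay below the other libraries for Glra1, Slc6a5, Slc6a9 and Glrb and above them for Gabra4, Gabrb2 and Gabbr2.

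The summed level of the 5 glycine receptor subunits was between 69.2% and 73.03% of that of all listed receptor channel subunits (5 glycine receptor and 14 GABA-A) in the 4 WT libraries, in RPKM. The share was 67.2% and 68.2% in MFN2 libraries 41 and 42 and 69.8% to 73.2% in libraries 72 to 76. In library 43 it was 35.5%. Libraries 41 and 42 thus lay just below the WT range, libraries 72 to 76 overlapped with it, and library 43 was the only one in which the listed GABA-A subunits outweighed the glycine receptor. Not every GABA-A subunit is on the list, so the share describes these genes and not the whole receptor family.

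Slc6a5, Gad1, Gad2 and Slc32a1 are the genes on which a cell's glycinergic or GABAergic identity rests, so the stretch before a start site of each is shown, as given by RefSeq on GRCm38.p6, plus strand, cut before the exon that follows. For Slc6a5, Gad2 and Slc32a1 it lies before the annotated gene. Gad1 has a further annotated transcript that begins upstream, at position 70553072 of chromosome 2, and the stretch shown lies in the first intron of that transcript, before the exon with which other Gad1 transcripts start. Of the 30 members, 26 had a promoter in the RefSeq table. Capitals mark an E box (CANNTG, which reads the same on both strands), the letters bound by basic helix-loop-helix factors such as those that act in inhibitory progenitors. The stretches lie at chr7:49910049-49910145 for Slc6a5, chr2:70561879-70562041 for Gad1, chr2:22622077-22622204 for Gad2 and chr2:158610508-158610757 for Slc32a1.
Slc6a5: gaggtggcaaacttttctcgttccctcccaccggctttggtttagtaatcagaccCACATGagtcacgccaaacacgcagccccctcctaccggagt
Gad1: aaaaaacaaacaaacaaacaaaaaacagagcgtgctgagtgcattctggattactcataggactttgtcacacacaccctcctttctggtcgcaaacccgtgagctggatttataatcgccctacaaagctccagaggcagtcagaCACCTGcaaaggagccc
Gad2: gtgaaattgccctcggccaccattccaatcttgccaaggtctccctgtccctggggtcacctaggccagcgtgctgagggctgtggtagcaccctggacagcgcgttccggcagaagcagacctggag
Slc32a1: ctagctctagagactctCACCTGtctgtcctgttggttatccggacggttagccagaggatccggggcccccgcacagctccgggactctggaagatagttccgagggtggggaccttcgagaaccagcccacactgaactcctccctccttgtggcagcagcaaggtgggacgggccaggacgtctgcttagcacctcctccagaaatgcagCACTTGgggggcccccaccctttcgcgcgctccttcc

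These stretches held 1 E box before Slc6a5, 1 before Gad1, 0 before Gad2 and 2 before Slc32a1. Of 32851 promoter windows, 35.3%, 52.1%, 43.9% and 66.2% held at least 1 in a stretch of the same length, in that order. A match is a description of the letters and says nothing of binding in these mice.

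In library 43 the main glycinergic genes were low and several GABA receptor genes high, though neither group moved as one. Of the 6 glycinergic members tested, 4 were lowest in it and 1 was highest, while of the 15 GABAergic members 7 were highest and 3 were lowest. Among all 15942 genes tested, 25.9% were highest and 28.6% lowest in this library. The median log2 ratio of library 43 to the median of the other 11 libraries was -1.21 for glycinergic, 0.30 for GABAergic and -0.62 for shared members, beside -0.03 for all genes.

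On the glycine side, Glra1 measured 45.8 CPM in library 43 against 229.5 to 374.7 CPM in the others, and was 6.40-fold below their median. Slc6a5, the neuronal transporter GlyT2 that marks glycinergic neurons, measured 76.3 CPM against 334.9 to 447.4 CPM (5.30-fold lower), and Slc6a9, the mainly glial transporter GlyT1, measured 49.6 CPM against 138.2 to 210.1 CPM (3.66-fold lower). Glrb, at 153.8 CPM against 209.1 to 257.2 CPM, fell outside the range of the others by less. Glra2 was the only glycinergic member at its highest in library 43, with 16.1 CPM against 4.8 to 10.4 CPM.

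On the GABA side, Gabrd was the member furthest above the other libraries, at 23.6 CPM against 0.26 to 0.89 CPM (53.6-fold above their median). Gabra4, its partner in extrasynaptic receptors of forebrain and thalamus, measured 67.5 CPM against 11.8 to 21.96 CPM (4.25-fold higher), and Gabrb2 measured 133.4 CPM against 32.8 to 47.9 CPM (3.50-fold higher). Gabbr2 was at 384 CPM against 133.6 to 212.7 CPM and Gabbr1 at 589 CPM against 354.2 to 430.9 CPM. The GABA genes did not all move one way. Gad1 and Gad2 stayed within the range of the other libraries, at 161.6 and 143.3 CPM, whereas Abat (1.78-fold), Gabrq (3.0-fold) and Gabre (6.77-fold) were below all of them. Of the shared genes, Slc32a1 was 1.98-fold and Slc12a2 2.54-fold below the median of the others, and Slc12a5 was within their range. These differences moved together with the forebrain, Hox and motor neuron markers given above, and the part of the markers in them was not tested. In bulk RNA, fewer cells of a type and less RNA per cell cannot be told apart.

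**Figure D2:**
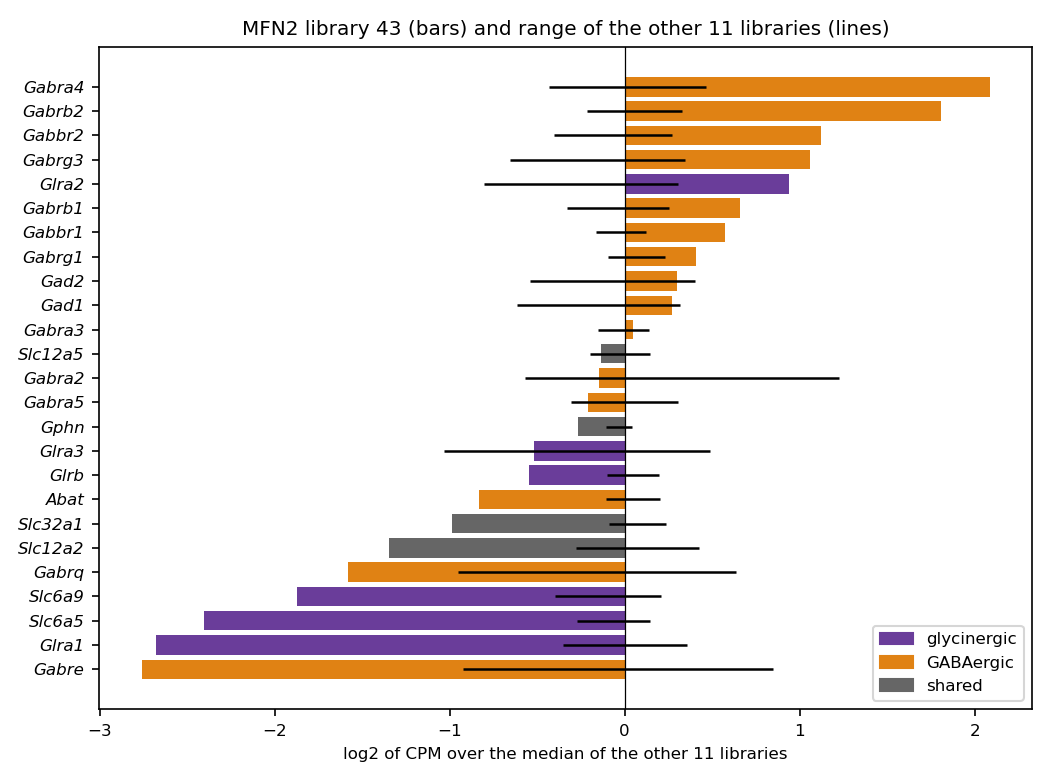
Bars show, for each member that passed the filter, the log2 ratio of its CPM in MFN2 library 43 to the median of the other 11 libraries, coloured by group; black lines show the range of those 11 libraries on the same scale. The bars of Glra1, Slc6a5 and Slc6a9 reach left beyond the lines and those of Gabra4 and Gabrb2 right beyond them, while Gad1 and Gad2 stay within.

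Whether MFN2 and WT mice differed in these genes was first asked of all 12 libraries. None of the 25 members tested reached an FDR of 0.05 (edgeR, quasi-likelihood F test, Benjamini-Hochberg over all genes), beside 0% of the 15942 genes tested. With limma-voom 0 members and 0 genes were called, and with DESeq2 1 member, Gad1, and 200 genes. At an unadjusted p under 0.05, 5 members were higher in MFN2 mice and 0 lower, beside 15% of all genes in either direction (7.4% higher and 7.57% lower). These were Gad1, Glra3, Gabrg3, Glra2 and Gad2. The median log2 fold change was 0.35 over GABAergic, -0.10 over glycinergic and -0.15 over shared members, and 0.0038 over all genes. Without library 43 it was 0.11 over GABAergic and 0.0081 over glycinergic members, so that the distance between the groups narrowed. That comparison called 19 genes of 15835 (0.12%), of which 0 were members. Of the members, 8 were higher and 2 lower at an unadjusted p under 0.05 without library 43, beside 10.7% and 10.4% of all genes. With library 43 kept, the count of 5 members fell to 2, 2 and 1 in either direction without WT library 45, 46 or 47. Of all genes, 1418, 1439 and 1608 were at that p in these fits, in turn.

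Gad1, which encodes the enzyme GAD67, was the member with the lowest p. It measured 125.2, 110.2, 120.1 and 87.6 CPM in WT libraries 44 to 47. In MFN2 mice it measured 147.1 and 147.8 CPM in libraries 41 and 42, 161.6 CPM in library 43, and 167.1, 127.4, 146.1, 151.0 and 134.1 CPM in libraries 72 to 76. All 8 MFN2 libraries thus lay above all 4 WT libraries, in both runs of numbers, although library 73 was only just above WT library 44. The log2 fold change was 0.42 ± 0.10 (SE; unadjusted p = 0.00101, FDR = 0.254 in edgeR), and 0.40 ± 0.09 without library 43 (FDR = 0.0783). DESeq2 gave an adjusted p of 0.0204, and the fits that left out 1 library an FDR between 0.0783 and 0.554. Groups without overlap were found for 2.04% of all genes (0.979% higher and 1.07% lower in MFN2) and for 2 members, Gad1 and, in the other direction, Gphn. The same 2 members were without overlap when library 43 was left out, beside 2.87% of all genes.

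Gad2, which encodes GAD65 of nerve terminals, varied more within WT mice, with 142.0, 96.6, 107.9 and 79.9 CPM. MFN2 libraries ranged from 111.1 to 154.1 CPM, with a median of 142.8 CPM. The groups overlapped, with WT library 44 above 3 of the 8 MFN2 libraries, and the log2 fold change was 0.35 ± 0.14 (FDR = 0.302 in edgeR) and 0.33 ± 0.14 without library 43 (FDR = 0.215). Gabrg3, the gamma-3 subunit, measured 25.1, 16.5, 15.1 and 14.3 CPM in WT and 20.3 to 47.2 CPM in MFN2 libraries (median 23.6 CPM), the highest being library 43. Its log2 fold change was 0.58 ± 0.23 (FDR = 0.294) and 0.42 ± 0.15 without library 43 (FDR = 0.154), and WT library 44 overlapped with the MFN2 range. Gphn measured 78.8, 78.6, 80.5 and 79.9 CPM in WT and 65.1 to 78.2 CPM in MFN2 libraries. The groups did not overlap, but the highest MFN2 library lay within 1 CPM of the lowest WT library, and the log2 fold change was -0.08 ± 0.06 (FDR = 0.488), or -0.05 ± 0.04 without library 43 (FDR = 0.466).

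Among the glycine receptor subunits, Glra3, found mainly in the dorsal horn, measured 28.9, 19.1, 23.4 and 14.1 CPM in WT and 20.2 to 40.5 CPM in MFN2 libraries (median 32.3 CPM). The log2 fold change was 0.57 ± 0.20 (FDR = 0.278 in edgeR), or 0.64 ± 0.17 without library 43 (FDR = 0.0987), with overlapping groups. Glra2 measured 8.82, 6.12, 6.47 and 4.8 CPM in WT and 6.17 to 16.1 CPM in MFN2 libraries, and the log2 fold change was 0.58 ± 0.23 (FDR = 0.294), or 0.44 ± 0.18 without library 43 (FDR = 0.186). Both minor alpha subunits were therefore higher on average in MFN2 mice but did not pass the adjusted test, and the highest Glra2 value came from library 43. The abundant glycinergic genes had their lowest MFN2 value in library 43 and did not pass either. For Glra1 the log2 fold change was -0.05 ± 0.37 (FDR = 0.959) with all libraries and 0.11 ± 0.11 without library 43 (FDR = 0.56), and it was above 0 also where all libraries were scaled by size only. For Slc6a5 it was -0.26 ± 0.32 (FDR = 0.691) and -0.11 ± 0.06 (FDR = 0.34), and for Slc6a9 -0.41 ± 0.25 (FDR = 0.431) and -0.28 ± 0.09 (FDR = 0.134).

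Slc32a1 was the shared member with the lowest p. It measured 149.8, 145.4, 155.8 and 132.2 CPM in WT libraries and 66.9 to 136.0 CPM in MFN2 libraries (median 127.6 CPM), and the log2 fold change was -0.26 ± 0.15 (FDR = 0.401) with all libraries and -0.17 ± 0.05 (FDR = 0.123) without library 43. Only WT library 47 fell within the MFN2 range. The antisense gene Gm14205 shares 697 bases of exon with Slc32a1 and had 22 to 87 counts of its own, and without the strand of the counting their reads cannot be told apart.

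**Figure D3:**
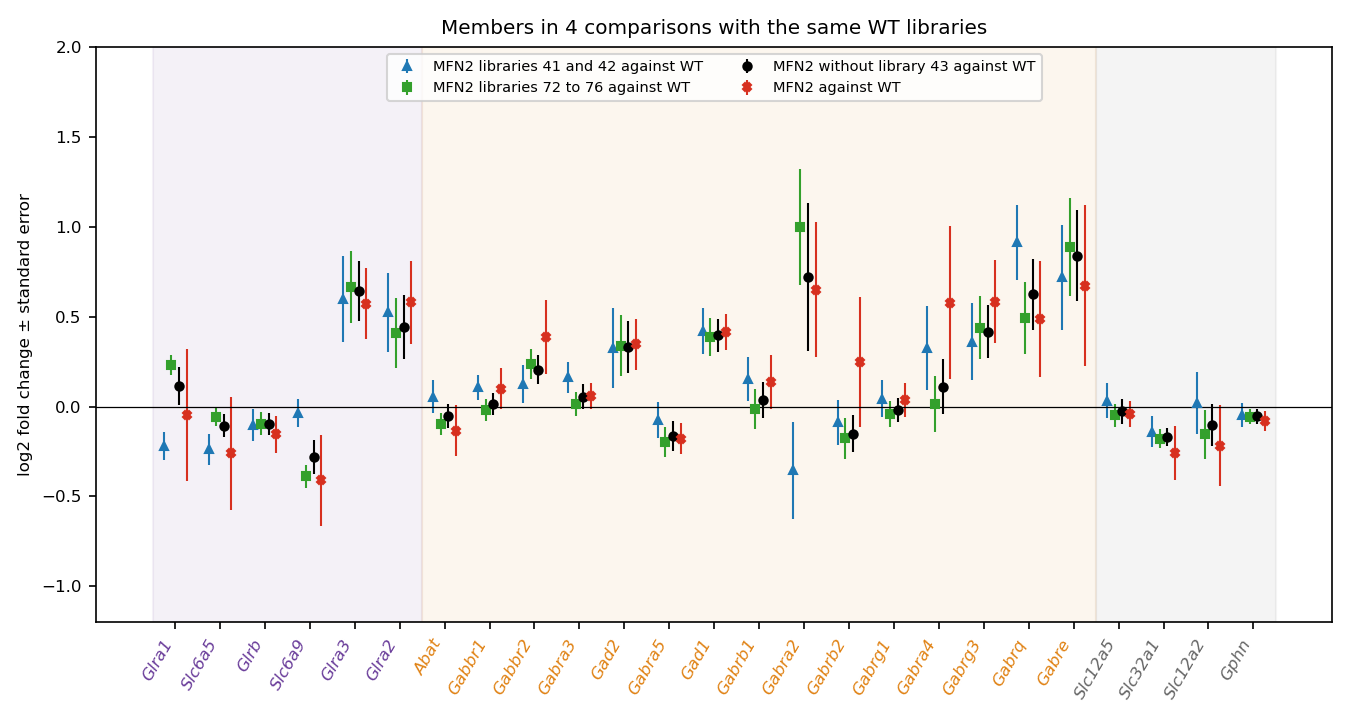
Log2 fold change of each member (points) with its standard error (bars) in 4 edgeR comparisons against the same 4 WT libraries. Removal of library 43 narrowed the bars of Glra1, Slc6a5, Gabra4 and Gabrb2, Gad1 stayed between 0.39 and 0.42 in all 4 comparisons, and Glra1 and Gabra2 changed side between MFN2 libraries 41 and 42 and MFN2 libraries 72 to 76.

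Glycinergic and GABAergic identity can be set against each other within a library, which removes the scaling between libraries. The log2 ratio of Slc6a5 to Gad1 (with a prior count of 2) was 1.84, 1.80, 1.83 and 2.25 in WT libraries 44 to 47. In MFN2 mice it was 1.19 and 1.33 in libraries 41 and 42, -1.08 in library 43, and 1.26, 1.69, 1.43, 1.42 and 1.61 in libraries 72 to 76. Every MFN2 library was below every WT library. Since Gad1 itself was higher in all MFN2 libraries, the ratio is not a separate observation from that one.

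With all libraries, the mean log2 ratio of Slc6a5 to Gad1 was lower by a difference of -0.83 in MFN2 mice, with an SD of 0.90 over MFN2 libraries, and the two-sided exact permutation test gave p = 0.0687 (adjusted p = 0.273 over the 5 ratios examined). Without library 43 the SD was 0.18 and the difference was -0.51, with exact permutation p = 0.00303, the smallest value these 330 splits allow, and adjusted p = 0.0152. Libraries 41 and 42 alone differed from WT by -0.67 (exact p = 0.0667, again the smallest possible) and libraries 72 to 76 by -0.45 (exact p = 0.0159, adjusted p = 0.0794). These comparisons share the 4 WT libraries. The direction was the same in each run of numbers, and the call over the 5 ratios held only where library 43 was left out or in libraries 41 to 43 (-1.45, exact p = 0.0286, adjusted p = 0.0476), which include it. The exact p in libraries 41 to 43 is the smallest that 35 splits allow. The ratios of Slc6a5 to Gad2 and of Glra1 to Glra2 had the same p there, on which the adjusted value depends.

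The ratio of Slc6a5 to Gad2 was lower by a similar amount (-0.77, exact p = 0.109 with all libraries, and -0.46, exact p = 0.0212, adjusted p = 0.053 without library 43), with overlapping groups in both. The ratio of Gad1 to Gad2 did not pass the test (difference 0.06, exact p = 0.517), nor did that of Glra1 to Glra2 (-0.80, exact p = 0.293, adjusted p = 0.488) or that of Slc12a5 to Slc12a2 (0.21, exact p = 0.501). Without library 43 these differences were 0.05, -0.35 and 0.06, and none passed (lowest exact p = 0.173). The last pair sets the chloride gradient on which both transmitters depend. Slc12a5 measured 562.4, 576.1, 606.9 and 510.3 CPM in WT and 490.9 to 622.6 CPM in MFN2 libraries (median 542.4 CPM). Its log2 fold change was -0.04 ± 0.07 (FDR = 0.798) and -0.03 ± 0.07 without library 43 (FDR = 0.848), and it lay just above 0 where libraries were scaled by size only. Slc12a2 measured 341.8, 464.1, 407.0 and 556.3 CPM in WT and 163.3 to 476.6 CPM in MFN2 libraries (median 395.4 CPM), with -0.22 ± 0.22 (FDR = 0.633) and -0.10 ± 0.12 (FDR = 0.637) in turn. Both overlapped between the genotypes, and their log2 ratio ranged from -0.12 to 0.72 in WT and from 0.07 to 1.65 in MFN2 libraries, the highest being library 43.

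The levels of forebrain and spinal inhibitory neuron markers are given here beside Gad1. The summed forebrain neuron markers were 108.5 to 142.3 CPM in WT and 140.3 to 207 CPM in the 7 MFN2 libraries other than 43, and 0 of the 7 tested passed the FDR in that comparison, while 1 was called higher in libraries 72 to 76 against WT. The forebrain inhibitory neuron markers were not higher in those 7 libraries (1.37 to 2.67 CPM, against 2.66 to 3.27 CPM in WT). Summed spinal inhibitory neuron markers were 437.7 to 518.2 CPM in WT and 400.6 to 469.5 CPM in the 7 MFN2 libraries. Most of this sum is Slc6a5, which is also in the ratio above. Without library 43, 6 of the 7 markers had a log2 fold change above 0 (median 0.13 over the 7, highest 0.46). Only Slc6a5 was below 0 (-0.11), and 0 of the 7 were called. The part of these markers in the Gad1 result was not tested.

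**Figure D4:**
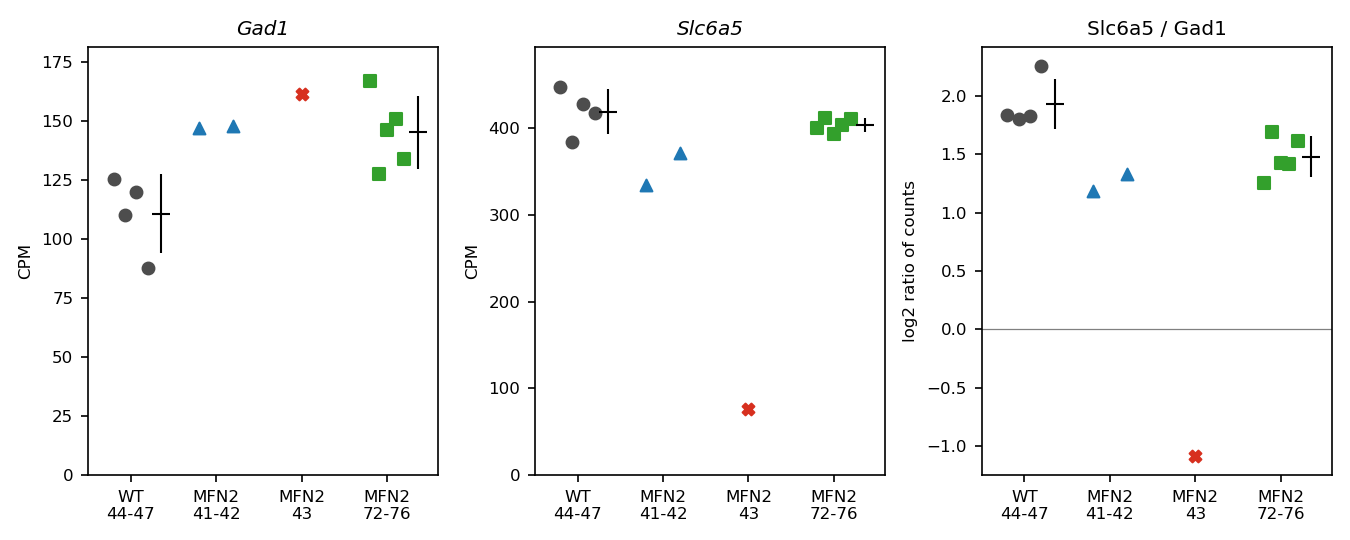
Gad1 and Slc6a5 in CPM and the log2 ratio of Slc6a5 to Gad1 in each library, by genotype and run of library numbers; bars give the mean and SD of groups with more than 2 libraries. Gad1 lay above the WT range in all 8 MFN2 libraries, and the ratio lay below the lowest WT value of 1.80 in all 8, with library 43 at -1.08.

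The 5 MFN2 libraries of the second run were then compared with WT mice on their own. Of the 25 members, 6 reached an FDR of 0.05, beside 23.8% of the 15743 genes tested (11.1% higher and 12.7% lower), so the share of members called was near that of all genes. Glra1, Glra3, Gabre and Gad1 were higher and Slc6a9 and Slc32a1 lower. DESeq2 called 9 members among 4252 genes, these 6 and, in addition, Gabra2, Gabbr2 and Gabrg3. The median log2 fold change was 0.09 over glycinergic and 0.01 over GABAergic members, beside -0.0007 over all genes. Groups without overlap were found for Glra1, Gad1, Slc6a9 and Gphn, beside 19.9% of all genes (9.29% higher and 10.6% lower).

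Glra1 measured 281.2, 274.2, 290.6 and 293.0 CPM in WT libraries and 374.7, 312.5, 324.7, 330.0 and 329.6 CPM in libraries 72 to 76. The log2 fold change was 0.23 ± 0.06 (FDR = 0.0125 in edgeR). In libraries 41 and 42, however, it measured 229.5 and 256.6 CPM, below all WT libraries, with a log2 fold change of -0.22 ± 0.08 (FDR = 0.862 in edgeR). MFN2 mice of the first run therefore lay below and those of the second run above WT mice, and comparisons with WT in both runs use the same 4 WT libraries. The difference between libraries 72 to 76 and libraries 41 and 42 was itself 0.45 ± 0.08 on the log2 scale (FDR = 0.00506), where 15.3% of 15509 genes were called. All 6 motor neuron markers were also above 0 in that comparison, and 2 were called higher (Chat, 0.61 ± 0.12, FDR = 0.00758, and Slc5a7, 0.44 ± 0.11, FDR = 0.0203), with sums of 199.6 to 263 CPM in libraries 72 to 76, 153.6 and 225.7 CPM in libraries 41 and 42, and 178.4 to 370 CPM in WT libraries. Of the caudal Hox, spinal inhibitory and cerebellar granule markers 1 each was called lower, and of the spinal excitatory markers 1 higher, while 3 of 6 astrocyte and 3 of 6 microglia markers were called lower. The part of these markers in the Glra1 result was not tested. With library 43 included in the first run the difference was 0.91 ± 0.45 (FDR = 0.248), where 2.19% of 15633 genes were called, and 0 members. The antisense gene Gm12236 shares 141 bases of exon with Glra1 and had 1 to 32 counts of its own.

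Slc6a9 measured 187.0, 210.1, 187.7 and 200.3 CPM in WT libraries and 146.6, 146.0, 138.2, 147.6 and 172.6 CPM in libraries 72 to 76. All 5 were below all WT libraries, and the log2 fold change was -0.39 ± 0.06 (FDR = 0.00178 in edgeR). Libraries 41 and 42, at 198.1 and 181.9 CPM, were close to WT mice (-0.04 ± 0.08), and libraries 72 to 76 were lower than these by a log2 fold change of -0.35 ± 0.08 (FDR = 0.0157). With library 43 in the first run the difference turned to 0.06 ± 0.36, with library 43 at 49.6 CPM. Exons of Slc6a9 overlap those of Ccdc24 on the opposite strand over 1258 bases, and Ccdc24 had 28 to 141 counts of its own.

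Astrocytes express Slc6a9, and their markers were also lower in libraries 72 to 76. Their summed level was 2081 to 3259 CPM in libraries 72 to 76, 3598 to 4642 CPM in WT libraries and 5093 and 2886 CPM in libraries 41 and 42, and 1564 CPM in library 43. For these markers library 41 lay above and library 42 below the WT range. Slc6a9 was within the WT range in library 41 and just below it in library 42. In libraries 72 to 76 against WT, 4 of the 6 markers were called lower and 0 higher, the most abundant being Gfap at 978 against 2066 CPM on average. Microglia markers were also lower in these libraries, with 5 of 6 called lower and a sum of 51.1 to 65.1 CPM against 71.1 to 96.4 CPM in WT libraries, and in libraries 41 and 42 they summed to 116.4 and 69.9 CPM. Of the 4 cerebellar granule neuron markers tested, 1 was called higher (Zic1, 0.45 ± 0.14, FDR = 0.0412). Of 5 erythrocyte markers 1 was called higher (Alas2, 1.18 ± 0.36, FDR = 0.0479), and their sum was 116.5 to 333 CPM in libraries 72 to 76, highest in library 73, against 68.1 to 202 CPM in WT libraries. Of 6 general neuron markers 1 was called higher (Syt1, 0.47 ± 0.14, FDR = 0.0327) and 1 lower (Snap25, -0.18 ± 0.06, FDR = 0.0414). The part of these markers in the Slc6a9 result and in the other calls of libraries 72 to 76 was not tested.

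Glra3 rose by a log2 fold change of 0.66 ± 0.20 (FDR = 0.0394 in edgeR) in libraries 72 to 76, with 40.5, 28.4, 38.9, 34.2 and 27.8 CPM, and measured 33.2 and 31.4 CPM in libraries 41 and 42. WT library 44, at 28.9 CPM, overlapped with the lower of these. Gabre, the epsilon subunit, rose by 0.89 ± 0.27 (FDR = 0.0341) from a mean of 2.00 CPM in WT, near the filter, to 5.14, 2.11, 4.71, 3.6 and 2.96 CPM, and measured 2.86 and 3.70 CPM in libraries 41 and 42 and 0.42 CPM in library 43. Gad1 rose by 0.39 ± 0.11 (FDR = 0.0246) and Slc32a1 fell by 0.18 on the log2 scale (SE 0.05, FDR = 0.0264), with 133.5, 127.3, 127.9, 131.7 and 124.3 CPM in libraries 72 to 76. Between libraries 72 to 76 and libraries 41 and 42, Gad1 had a log2 fold change of -0.03 ± 0.09 (FDR = 0.855). In libraries 72 to 76 the vesicular transporter was thus lower while one of the synthesis enzymes was higher. Of these 6 calls, Glra1 and Slc6a9 were kept when any 1 of the 9 libraries was left out, and the other 4 were each lost at least once. Of the 6, only these 2 remained without library 74, without library 75 or without WT library 45. Without library 73, 5 of the 6 were kept (Slc32a1 was lost) and Gabbr2 was called in addition, and the call of Slc32a1 was also lost when libraries were scaled by their size only.

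Gabra2, an alpha subunit of synaptic GABA-A receptors, split the MFN2 libraries of the second run. It measured 142.5, 138.2, 164.1 and 139.1 CPM in libraries 72, 73, 74 and 76 but 60.2 CPM in library 75. WT libraries had 70.3, 47.3, 89.2 and 50.2 CPM, and MFN2 libraries 41, 42 and 43 had 47.8, 52.1 and 63.7 CPM. The 4 high libraries lay above the other 8 without overlap, and library 75 lay within the WT range. The log2 fold change in libraries 72 to 76 against WT was 1.00 ± 0.32 (FDR = 0.0605 in edgeR), while DESeq2 and edgeR with scaling by library size only both called it in these 5 libraries.

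Gabra2 lies at chr5:70957597-71095849 (GRCm38, minus strand) in a cluster of GABA-A subunit genes. Its neighbours did not share the pattern. Gabrg1, at chr5:70751047-70842617, measured 28.6 to 35.9 CPM in WT and 29.2 to 32.95 CPM in libraries 72 to 76. Gabra4, at chr5:71569749-71658308, measured 11.8 to 21.96 and 13.6 to 16.8 CPM in the same groups, and Gabrb1, at chr5:71658113-72149037, measured 108.8 to 147.0 and 98.4 to 134.0 CPM. None of the 3 genes separated libraries 72, 73, 74 and 76 from library 75.

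**Figure D5:**
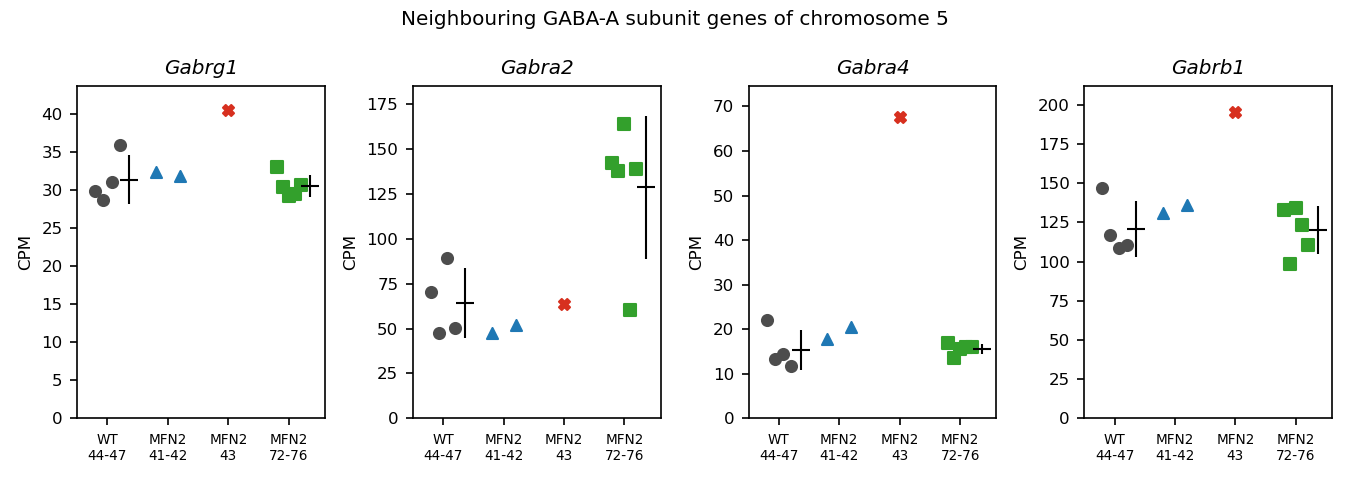
Gabra2 and its neighbours Gabrg1, Gabra4 and Gabrb1 on chromosome 5, in CPM per library, by genotype and run of library numbers; bars give the mean and SD of groups with more than 2 libraries. Gabra2 was at 138.2 to 164.1 CPM in 4 of the 5 MFN2 libraries of the second run and at 60.2 CPM in the other, while the other 3 genes showed no such split and were highest in library 43.

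The first run of numbers, which holds both genotypes, gave few calls. MFN2 libraries 41 to 43 against WT called 1 gene of 15200 (0.00658%) and 0 members, with a lowest member FDR of 0.622. Without library 43, 1 gene of 14988 (0.00667%) and 0 members were called. At an unadjusted p under 0.05, 5 members were higher and 2 lower in libraries 41 and 42 than in WT, beside 3.37% and 2.36% of all genes. Groups did not overlap for 5 members that were higher (Gad1, Gabrq, Gabre, Glra3 and Gabbr1) and 3 that were lower (Glra1, Slc6a5 and Gphn), beside 8.17% and 6.53% of all genes. The lowest p was that of Gabrq, the theta subunit, with 15.1 and 13.6 CPM against 7.46, 9.70, 8.33 and 5.01 CPM in WT (log2 fold change 0.91 ± 0.21, FDR = 0.862 in edgeR). Slc6a5, at 334.9 and 371.7 CPM, was below its 4 WT values of 447.4, 384.4, 427.6 and 418.0 CPM in both libraries (-0.24 ± 0.09, FDR = 0.862), whereas in libraries 72 to 76 it measured 400.02, 411.4, 392.9, 404.1 and 410.8 CPM and overlapped with WT (-0.06 ± 0.05, FDR = 0.429).

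Other genes of inhibitory synapses and of GABA and glycine metabolism were taken from a list of 46, of which 44 were matched. In MFN2 against WT mice, 0 of the 44 tested passed the FDR, and 1 was higher and 10 lower at an unadjusted p under 0.05, beside 7.4% and 7.57% of all genes. Without library 43, 0 of 43 passed, and 5 were higher and 12 lower, beside 10.7% and 10.4% of all genes. The lowest p among genes with a higher mean belonged to Slitrk3, an adhesion protein of inhibitory synapses, with a log2 fold change of 0.41 ± 0.17 (FDR = 0.294 in edgeR; 0.29 ± 0.10 without library 43), then to Kcnj9 (0.66 ± 0.32, FDR = 0.35; 0.34 ± 0.12 without library 43) and Shisa7 (0.93 ± 0.45, FDR = 0.352; 0.40 ± 0.10 without library 43). The lowest p among those that were lower belonged to Aldh9a1 (-0.43 ± 0.13, FDR = 0.265), which makes GABA by a route outside GAD, Aldh5a1 (-0.20 ± 0.06, FDR = 0.27), which degrades the product of Abat, and Amt (-0.32 ± 0.10, FDR = 0.278), of the glycine cleavage system. Of these, Aldh5a1 was lower in all 8 MFN2 libraries than in all 4 WT libraries.

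In libraries 72 to 76 against WT, 4 of the 43 tested genes of this list were higher and 15 lower, beside 11.1% and 12.7% of all genes. The lowest p among those higher belonged to Slitrk3 (0.38 ± 0.08, FDR = 0.00443), Shisa7, an auxiliary subunit of GABA-A receptors (0.44 ± 0.10, FDR = 0.00795), and Kcnj9, a potassium channel opened through GABA-B receptors (0.40 ± 0.12, FDR = 0.029). Those lower with the lowest p were Aldh9a1 (-0.51 ± 0.08, FDR = 0.00126), Amt (-0.39 ± 0.07, FDR = 0.00232) and Glul, the astrocytic glutamine synthetase (-0.62 ± 0.11, FDR = 0.00299). Between libraries 72 to 76 and libraries 41 to 43, 1 gene of the list was called, beside 2.19% of all genes, and this was Glul (-0.60 ± 0.12, FDR = 0.0448). Without library 43, 2 of 43 were higher and 8 lower, beside 15.3% of all genes, with Glul at -0.67 ± 0.11 (FDR = 0.00623). In libraries 72 to 76 against WT, the astrocyte markers given above were lower along with Glul and Slc6a9. Against libraries 41 to 43, all 6 astrocyte markers were below 0 as Glul was, while Slc6a9 was at 0.06. Without library 43, all 6 astrocyte markers were below 0, with 3 called lower, and Slc6a9 was at -0.35 (FDR = 0.0157 in edgeR). The part of these markers in the Glul result was not tested.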

How the data were processed

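RNA of the spinal cord of 12 mice was converted to libraries with a SMARTER kit and sequenced in pairs on a NextSeq 500. The authors trimmed the reads and aligned them with STAR to GRCm38.p6, and deposited raw read counts per gene for each library; the submitters' processing notes also name bcl2fastq and edgeR. Which program counted the reads, and whether by strand, is not given in the sources used here. No other measurements were used.

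Gene symbols, exon lengths and loci came from GENCODE M21, and promoter sequences from RefSeq. In R 4.3.3, genes above 1 CPM in at least 3 libraries were scaled by TMM and tested with the quasi-likelihood F test of edgeR 4.0.16 (legacy, robust), with Benjamini-Hochberg adjustment over all genes tested and an FDR of 0.05. RPKM used the union exon length. Ratios within a library used a prior count of 2 and two-sided exact permutation tests, adjusted over 5 ratios. The code was tested on simulated counts. No pair of libraries of the same genotype had counts within sampling noise of each other. Each library is 1 mouse, and p-values measure the spread between these mice.

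Alternatives were DESeq2 1.42.0, limma 3.58.1 (voom), other filters and scalings, a covariate for the run of numbers, and fits that dropped 1 library at a time. The members, gene lists and markers were chosen with earlier results of these data known. Values were given in full for members past the FDR in any comparison, for the 2 members with the lowest p in each group, for members of the ratios, and for the 3 pathway genes with the lowest p in each direction. Other members (Gabra2 and its neighbours, Gabrq and those extreme in library 43) were described after their values were seen.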

Additional observations from a re-analysis of the deposited data

Results flagged for a closer look

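In 60 groups of values (each member's log2 CPM, and each ratio, in MFN2 and in WT mice), the gap between the most extreme library and its neighbour, as a share of the whole range, was over Dixon's 95% limit in 22, where chance gives about 3. Of these, 20 were MFN2 library 43, whose forebrain, Hox and motor neuron markers are given in the report; their part in these values was not tested.

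Library 43 was the lowest MFN2 library for Slc6a5 (0.878 of the range), Slc32a1 (0.873), Glra1 (0.767), Abat (0.741), Slc6a9 (0.74), Slc12a2 (0.738), Glrb (0.701), Gabre (0.627), Gabrq (0.604) and Gphn (0.591). It was also lowest for the ratios of Slc6a5 to Gad1 (0.818), Slc6a5 to Gad2 (0.797) and Glra1 to Glra2 (0.738). It was the highest for Gabrb2 (0.766), Gabra4 (0.745), Gabbr2 (0.714), Gabrg1 (0.635), Gabbr1 (0.615) and Gabrg3 (0.59), and for the ratio of Slc12a5 to Slc12a2 (0.635). All glycinergic members among these were low, while the receptor subunits for GABA fell on both sides.

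Among WT mice, library 47 was the highest for the ratio of Slc6a5 to Gad1 (0.924), with a log2 ratio of 2.25 beside 1.80 to 1.84, and library 44 was the lowest for the ratio of Gad1 to Gad2 (0.841).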

How the results depend on the processing

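Of 25 members followed through 22 alternatives in the comparison of all MFN2 with WT mice, 13 kept their direction and their side of the threshold in every one, and 531 of 550 values did so in all. DESeq2 called 200 genes (121 higher, 79 lower) and 1 member, Gad1, against 0 and 0 in edgeR. It called 5 genes in libraries 41 to 43 against WT, 4252 genes with 9 members in libraries 72 to 76 against WT, and 1795 genes with 2 members (Gabra2 and Gabra4) between libraries 72 to 76 and 41 to 43. Restricting MFN2 mice to libraries 41 to 43 gave 1 gene and turned Gabra2 to -0.22, with ratio differences of -1.45 (Slc6a5 to Gad1), -1.36 (Slc6a5 to Gad2) and -1.83 (Glra1 to Glra2) past the threshold. Restricting them to libraries 72 to 76 gave 3746 genes and 6 members and turned Gabrg1 (-0.0404), Gabrb1 (-0.013), Gabrb2 (-0.18), Glra1 (0.23) and Gabbr1 (-0.021). Scaling by library size only turned Slc12a5 (0.011) and Glra1 (0.0098), and in libraries 72 to 76 against WT it moved the split from 1746 higher and 2000 lower to 2822 and 1345. With the run as a covariate Gabra2 was at -0.24 and the glycinergic median at -0.36, beside -0.35 in libraries 41 to 43, -0.20 with limma-voom and 0.09 in libraries 72 to 76; the GABAergic median was then 0.35, 0.37, 0.34 and 0.01. Leaving out 1 library gave 0 to 19 genes (19 without library 43, 7 without library 41) and 0 members in MFN2 against WT, 0 to 2 genes in libraries 41 to 43 against WT, 2350 to 4517 genes and 2 to 10 members in libraries 72 to 76 against WT (10 without WT library 44), and 31 to 2375 genes and 0 to 2 members between the runs (2375 and 2 without library 43). The Slc6a5 to Gad1 difference then ranged from -0.91 to -0.51 and that of Gad1 to Gad2 from -0.027 (without WT library 44) to 0.097. With 1 library left out the glycinergic median ranged from -0.14 to 0.0081 and the GABAergic one from 0.11 to 0.44, the smallest distance being without library 43. Log2 fold changes ranged from -0.12 to 0.11 for Glra1, from -0.15 to 0.33 for Gabrb2 and from -0.017 to 0.11 for Gabrg1 (-0.0042 without WT library 45); without library 43 they were 0.11, -0.15 and -0.017. The cause of these shifts was not tested. No paired analysis was possible because no library number occurs in both genotypes. What size of change these depths and numbers of mice could detect among members was not measured.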
